A study of Mus musculus with 18 samples.

Results

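The cytochrome P450 families 1, 2 and 3 were followed in the livers of Gpr180KO and wild-type (WT) mice on a high-fat diet (HFD). Members were all genes whose symbol reads Cyp, a family number from 1 to 3, a subfamily letter and a gene number. Such a name was carried by 59 of the 23352 symbols listed, and 46 of these reached a mean of at least 1 FPKM (fragments normalised to transcript length and to the mapped fragments of the library) over the libraries, among 10835 genes that did so. No member had been lost to a failed FPKM estimate. In each library, however, 17 to 23 entries with such a name had an FPKM above the upper confidence bound given beside it. The cause was not tested. The 46 members belonged to the subfamilies Cyp1a (2 genes), Cyp2a (4), Cyp2b (3), Cyp2c (13), Cyp2d (9), Cyp2e (1), Cyp2f (1), Cyp2j (3), Cyp2r (1), Cyp2u (1) and Cyp3a (8). Just inside the minimum was Cyp2b10 with a mean of 1.04 FPKM and just outside it Cyp1b1 with 0.204 FPKM.

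Bulk liver poly(A) RNA was sequenced from 9 WT and 9 Gpr180KO mice, 1 library per mouse. All mice were male, 20 weeks old and fed HFD, so that neither group stands for the unchallenged liver. Gpr180 encodes a membrane protein that has been placed in TGF-β signalling in adipocytes. In the knockout liver the study of these mice reported unaffected phosphorylation of SMAD2 and SMAD3 and reduced phosphorylation of mTOR. The knockout was a whole-body deletion around exon 6 made with CRISPR/Cas9, with WT controls bred from heterozygous parents. Sample titles fell into 2 runs of mouse numbers, called title series 1 (4 WT and 4 Gpr180KO) and title series 2 (5 and 5) here, and the labels do not say what set them apart.

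P450 enzymes are haem proteins of the endoplasmic reticulum that insert oxygen into lipophilic molecules with electrons from the reductase Por. Families 1 to 3 make up most of the drug-, steroid- and fatty acid-oxidising capacity of hepatocytes. Transcription of many members is set by the ligand receptors AhR, CAR and PXR and, in rodents, by the sex-specific pattern of growth hormone release, so that several are predominant in the livers of females or of males.

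Gpr180 itself was measured at 6.79 ± 1.99 FPKM (SD, n = 9) in WT and 1.60 ± 0.371 FPKM (SD, n = 9) in Gpr180KO, with no overlap between the groups. The tables held no read counts. The value of 1 read, read from the spacing of low values, gave relative depths between 60.7% and 100% of the deepest library in WT and between 44.4% and 94.0% in Gpr180KO. Because whole tissue was sampled, fewer cells of a type and less RNA per cell cannot be told apart. The 6 hepatocyte marker genes had a median log2 difference of 0.18 between Gpr180KO and WT. Of the 5 stellate cell and fibroblast markers 3 fell, and their summed level was 132 to 231 FPKM in WT and 73.8 to 120 FPKM in Gpr180KO. Over all genes tested 4.28% fell. Of 5 macrophage markers Cd68 fell (log2 difference -0.69, limma adjusted p = 0.0257), with summed levels of 108 to 234 FPKM in WT and 122 to 181 FPKM in Gpr180KO. The cholangiocyte marker Sox9, the one of its list of 4 that was tested, also fell (log2 difference -0.70, limma adjusted p = 0.0454). Sox9 reached the minimum of 1 FPKM only through WT (mean 1.44 FPKM, against 0.860 FPKM in Gpr180KO), so its test is not independent of that minimum. After median-of-ratios scaling of the libraries it was not called (limma adjusted p = 0.1205). The cholangiocyte list summed to 2.72 to 6.02 FPKM in WT and 1.43 to 3.43 FPKM in Gpr180KO. The part of these other cells in the P450 differences was not tested.

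The summed level of the 46 members did not set the genotypes apart. It was 9300 ± 1387 FPKM in WT (SD, n = 9; lowest 6925, median 9352, highest 11620) and 9159 ± 399 FPKM in Gpr180KO (SD, n = 9; lowest 8561, median 9075, highest 9784). The knockouts lay inside the range of WT. This sum was 1.24% to 2.07% of all FPKM in WT libraries and 1.36% to 1.67% in Gpr180KO. Cyp2e1 alone made up 40.6% of it in WT and 42.4% in Gpr180KO. Between replicates the members varied with a median coefficient of variation of 22.5% in WT and 23.0% in Gpr180KO, against 14.6% and 21.4% for all genes tested.

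Single genes moved in both directions. In a limma fit on log2(FPKM + 0.1), adjusted by Benjamini-Hochberg over all genes tested, 5 of 46 members fell (Cyp3a11, Cyp3a41a, Cyp3a44, Cyp2c39, Cyp2a22) and 1 rose (Cyp1a2). Over all genes tested 4.28% fell and 0.452% rose. The median log2 difference of the members was 0.04, with 19 below 0 and 27 above, whereas the median of all genes was -0.13 and 76.95% of genes lay below 0. Scaling libraries by the median of ratios moved the median of all genes to -0.01 and that of the members to 0.16, with 14 members below 0 and 32 above. After that scaling 4 members fell and 1 rose, against a background of 1.58% and 1.03%, and Cyp2a22 was no longer called. With the title series as a block 11 members fell and 2 rose, against 9.52% and 1.13% of all genes. One of the 11, Cyp2b13, reached the FPKM minimum only through its WT level. Adjusted p-values given as blocked come from that fit.

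**Figure D1:**
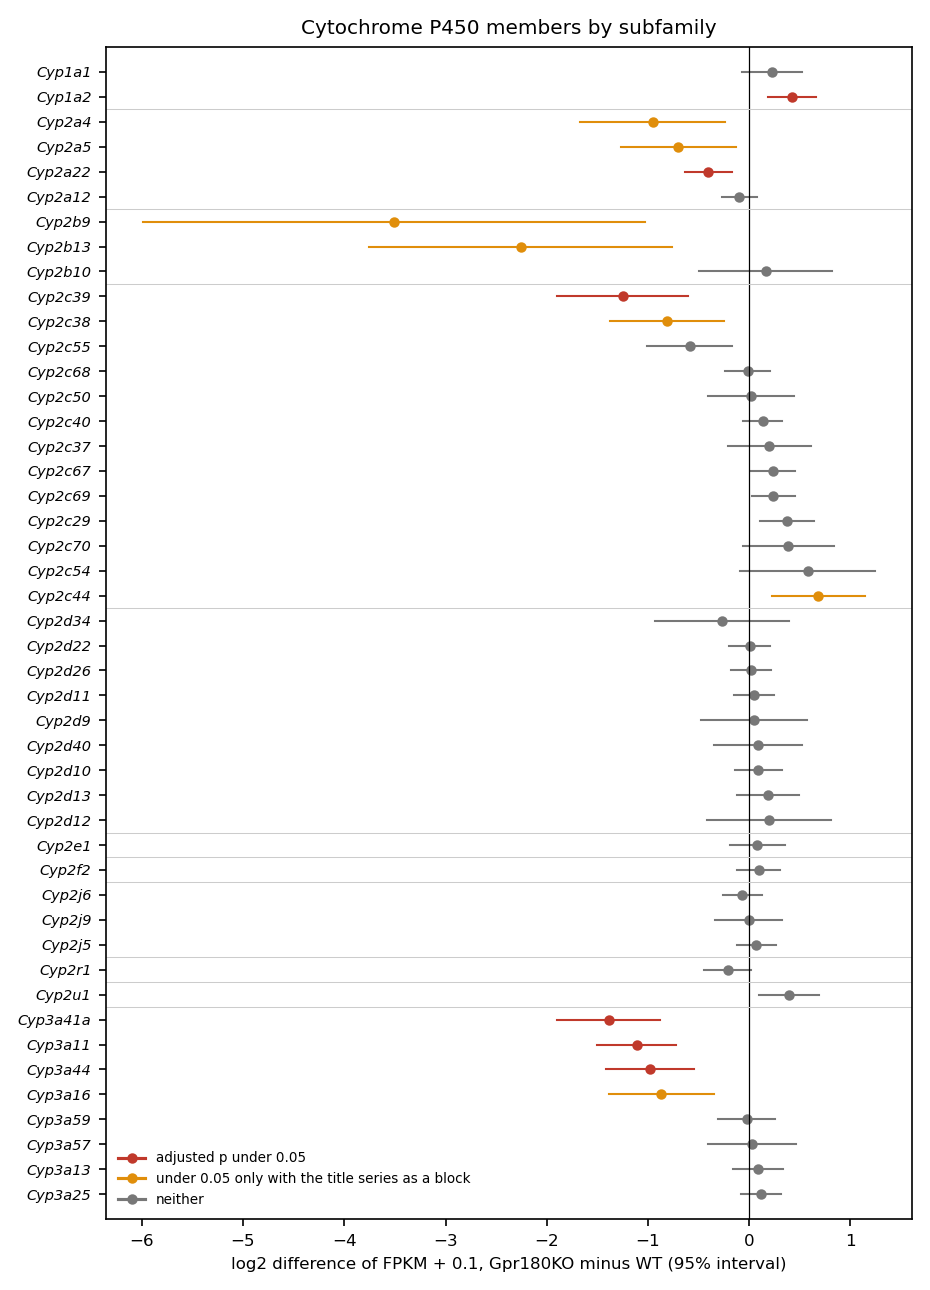
Log2 difference of FPKM + 0.1 (Gpr180KO minus WT, x axis) with its 95% interval for each of the 46 members (y axis), ordered by subfamily. Red marks the 6 members past the threshold, orange those past it only with the title series as a block, and the red points below 0 gather in Cyp3a, with 1 each in Cyp2a and Cyp2c.

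The Cyp3a subfamily had the most calls. These enzymes oxidise steroids, bile acids and many drugs, and Cyp3a11 is the main PXR target among them. Their summed level was 948 to 1828 FPKM in WT (median 1036) and 603 to 963 FPKM in Gpr180KO (median 656), so the Gpr180KO mean was 62.4% of WT and the subfamily went from 12.8% to 8.07% of the members' sum. The subfamily lies on chromosome 5, and its neighbouring genes Cyp3a16, Cyp3a41a, Cyp3a44 and Cyp3a11 had log2 differences from -1.39 to -0.87. Cyp3a57 on the one side and Cyp3a25 and Cyp3a59 on the other had -0.03 to 0.12. Cyp3a13, with 0.09, lies apart from these genes at chr5:137892933-137921619.

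Cyp3a11 (chr5:145854607-145879854, mm10) had 619 FPKM in the lowest WT library, a median of 710 and 1440 in the highest. In Gpr180KO it had 227, 382 and 577 FPKM. Every knockout was below every WT mouse, and Cyp3a11 was the only one of the 46 members without overlap, a pattern that 0.175% of all genes showed downwards and 0.0554% upwards. The mean fell from 848 ± 258 to 397 ± 126 FPKM (SD, n = 9 each), a log2 difference of -1.11 (SE 0.187, 95% interval -1.50 to -0.72, limma adjusted p = 0.00677). The log2 difference was -0.64 in title series 1 and -1.49 in title series 2. Fitted alone, with 4 or 5 mice a genotype, neither series passed the threshold (adjusted p = 0.0696 and 0.0889 in limma), and an interaction of genotype with title series was not called for this gene (limma adjusted p = 0.601).

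Cyp3a41a, a female-predominant steroid-metabolising member, was far less abundant. It is listed at chr5:145558664-145584730 and at chr5:145694049-145720136, and its value is the sum of both; RefSeq names the first locus Cyp3a41b. WT libraries had 8.71 to 26.7 FPKM (median 14.5) and Gpr180KO 3.82 to 11.3 FPKM (median 5.20). Of the knockouts 8 of 9 were below the lowest WT mouse. The log2 difference was -1.39 (SE 0.245, 95% interval -1.90 to -0.88, limma adjusted p = 0.00726).

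Cyp3a44 (chr5:145773983-145805874), also female-predominant, had 7.25 to 15.7 FPKM in WT (median 10.9) and 2.75 to 10.6 FPKM in Gpr180KO (median 5.27). In 7 of 9 knockouts it was below the lowest WT value. Its log2 difference was -0.98 (SE 0.209, 95% interval -1.42 to -0.55, limma adjusted p = 0.0167). Cyp3a16 (chr5:145436309-145469723), best known from fetal and female liver, had 4.39 to 9.99 FPKM in WT (median 8.01) and 2.02 to 7.07 FPKM in Gpr180KO (median 4.63). All 9 knockouts were below the WT median, as for 9 of the 46 members and 13.15% of all genes, and the log2 difference of -0.87 did not pass (limma adjusted p = 0.0510, blocked 0.00551).

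The other 4 genes of the subfamily had other values. Cyp3a25, the next in order and the second most abundant of the subfamily, had 198 to 272 FPKM in WT and 194 to 298 FPKM in Gpr180KO, a log2 difference of 0.12 (95% interval -0.08 to 0.31, limma adjusted p = 0.461). The differences of Cyp3a13, Cyp3a57 and Cyp3a59 were 0.09, 0.03 and -0.03. The groups overlapped for all 4. In the median WT library Cyp3a25 stood at 30.3% of the Cyp3a11 level, and in the median knockout at 69.0%.

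**Figure D2:**
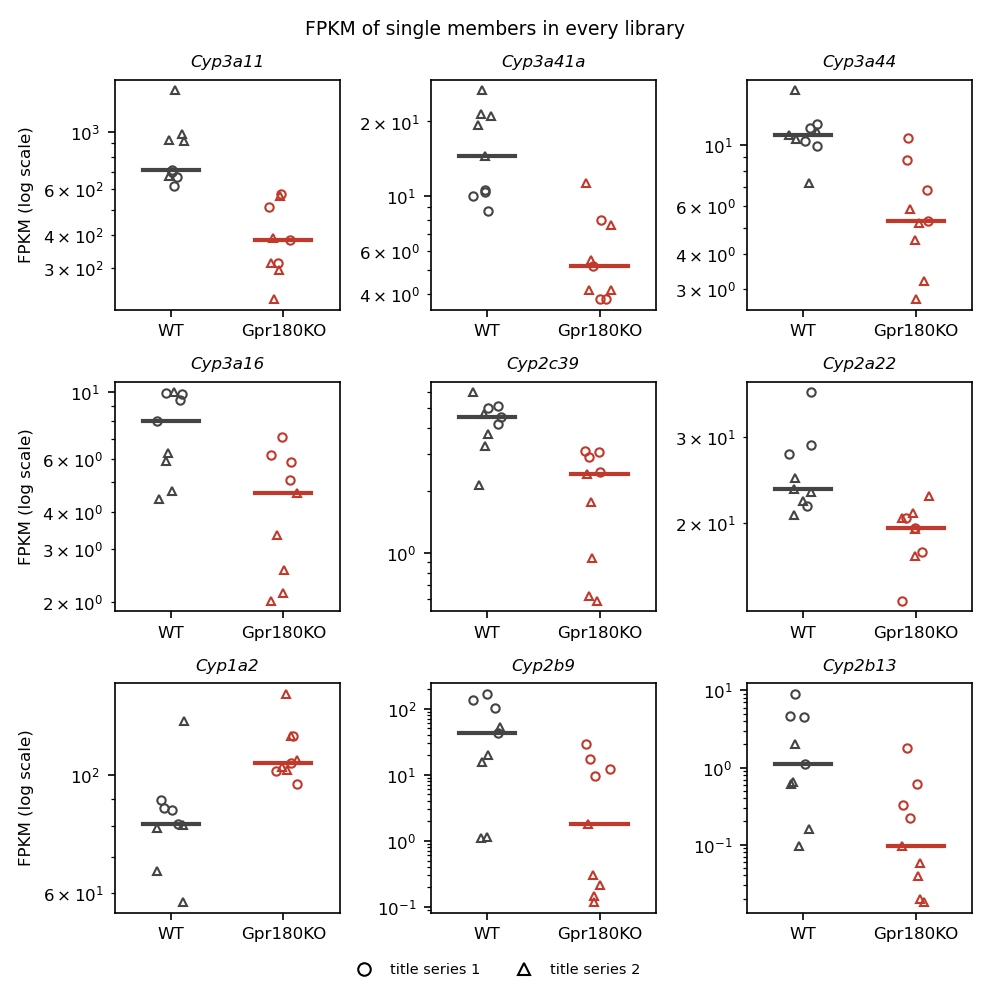
FPKM on a log scale (y axis) of 9 members in each of the 9 WT (grey) and 9 Gpr180KO (red) libraries, with circles for title series 1, triangles for title series 2 and a bar at the median. Cyp3a11 separates the genotypes completely, Cyp1a2 is the panel where knockouts are higher, and the Cyp2b genes span over 2 orders of magnitude.

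How far reads of the Cyp3a genes can be told apart is seen in a stretch of coding exon 11 of the length of 1 read (75 bases, GRCm38, minus strand, GENCODE transcripts). It is shown to give the divergence of these 4 genes and of Cyp3a25, and capitals mark bases that differ from Cyp3a11. The Cyp3a11 stretch lies at chr5:145860464-145860538 and the Cyp3a25 stretch at chr5:145985022-145985096.
Cyp3a11: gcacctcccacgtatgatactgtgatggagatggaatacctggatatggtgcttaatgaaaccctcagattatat
Cyp3a41a: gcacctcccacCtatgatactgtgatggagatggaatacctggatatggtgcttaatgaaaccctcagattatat
Cyp3a44: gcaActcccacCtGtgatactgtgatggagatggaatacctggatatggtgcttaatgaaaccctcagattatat
Cyp3a16: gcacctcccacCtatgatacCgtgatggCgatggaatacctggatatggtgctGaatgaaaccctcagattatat
Cyp3a25: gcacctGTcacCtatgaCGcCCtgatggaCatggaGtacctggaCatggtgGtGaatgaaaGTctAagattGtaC
Here Cyp3a41a differed from Cyp3a11 at 1 base, Cyp3a44 at 3, Cyp3a16 at 4 and Cyp3a25 at 17.

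Of the windows of 75 bases in a transcript, 3.66% of those of Cyp3a11, 11.0% of Cyp3a44 and 1.63% of Cyp3a16 occurred exactly in another gene. For Cyp3a41a the share was 95.3%, and 91.1% of its windows occurred in Cyp3a41b, so its level stands for both copies. Allowing 2 mismatches, 38.0% of Cyp3a11, 47.8% of Cyp3a41a, 47.4% of Cyp3a44, 29.0% of Cyp3a16 and 62.3% of Cyp3a25 windows matched another subfamily member. The levels of Cyp3a41a, Cyp3a44 and Cyp3a16 were a median of 1.86%, 1.20% and 0.694% of Cyp3a11 in WT. In Gpr180KO they were 1.38%, 1.67% and 1.07%. Whether reads of Cyp3a11 placed on its scarce neighbours contributed to their difference was not tested.

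The same 4 genes are close relatives in sequence. Over the coding sequence Cyp3a11, Cyp3a41a, Cyp3a44 and Cyp3a16 shared 92.5% to 95.8% of bases with each other. Cyp3a25, Cyp3a57 and Cyp3a59 form a second group with 93.9% to 97.5%. In the 250 bases before the start of transcription Cyp3a41a, Cyp3a44 and Cyp3a16 shared 93.9% to 95.9%, while Cyp3a11 shared 76.6% to 78.4% with them. The last 150 of these bases (RefSeq, GRCm38.p6, minus strand) are printed because the genes of both groups can be compared in them, with capitals for bases that differ from Cyp3a41a or have no partner there. The stretches end next to the start sites, at chr5:145720137-145720286 for Cyp3a41a, chr5:145805875-145806024 for Cyp3a44, chr5:145469724-145469873 for Cyp3a16, chr5:145879855-145880004 for Cyp3a11 and chr5:146009619-146009768 for Cyp3a25.
Cyp3a41a: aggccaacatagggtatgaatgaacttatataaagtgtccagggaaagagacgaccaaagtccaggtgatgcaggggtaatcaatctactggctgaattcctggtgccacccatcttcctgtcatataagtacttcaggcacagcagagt
Cyp3a44: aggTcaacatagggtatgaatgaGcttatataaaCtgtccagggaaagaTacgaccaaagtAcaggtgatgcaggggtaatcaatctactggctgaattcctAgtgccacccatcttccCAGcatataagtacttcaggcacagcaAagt
Cyp3a16: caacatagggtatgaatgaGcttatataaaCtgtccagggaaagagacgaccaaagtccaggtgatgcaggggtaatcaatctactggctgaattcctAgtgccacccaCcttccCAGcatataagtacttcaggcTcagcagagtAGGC
Cyp3a11: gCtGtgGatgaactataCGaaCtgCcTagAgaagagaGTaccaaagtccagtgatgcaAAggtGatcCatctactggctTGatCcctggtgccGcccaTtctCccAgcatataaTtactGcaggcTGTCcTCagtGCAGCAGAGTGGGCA
Cyp3a25: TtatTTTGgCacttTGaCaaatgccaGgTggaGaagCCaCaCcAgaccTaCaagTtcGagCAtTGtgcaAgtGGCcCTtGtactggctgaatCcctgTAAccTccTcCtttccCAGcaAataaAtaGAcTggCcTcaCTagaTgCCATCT
Cyp3a44 differed from Cyp3a41a at 10 of 150 aligned bases, Cyp3a16 at 8 of 146 and Cyp3a11 at 29 of 139, the last with 5 further bases in gaps.

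**Figure D3:**
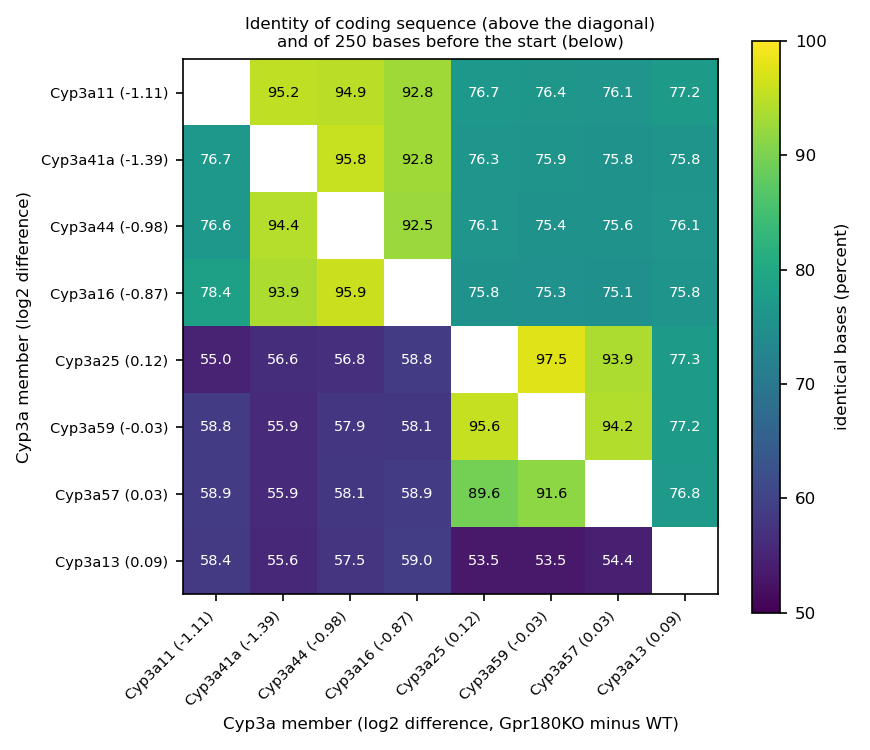
Percent identical bases between each pair of the 8 Cyp3a members, for the coding sequence above the diagonal and for the 250 bases before the start below it, with each gene's log2 difference in its axis label. Cyp3a11, Cyp3a41a, Cyp3a44 and Cyp3a16, with differences from -1.39 to -0.87, form 1 block of high coding identity, and Cyp3a25, Cyp3a57 and Cyp3a59 form another.

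Among the Cyp2b genes Cyp2b9 and Cyp2b13 had, with 0.1 added to FPKM, the largest log2 differences of the 46 members. The spread between their replicates was also the largest. Cyp2b9 and Cyp2b13 are female-predominant, and Cyp2b10 is the classic CAR target. Cyp2b9 (chr7:26173409-26210660) had 1.11 to 168 FPKM in WT (median 42.8) and 0.117 to 29.1 FPKM in Gpr180KO (median 1.78). Every knockout was below the WT median, 4 of 9 were below the lowest WT mouse, and the log2 difference was -3.51 (SE 1.19, 95% interval -5.99 to -1.03, limma adjusted p = 0.0894).

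Levels also differed between the title series. In title series 1 Cyp2b9 had 42.8 to 168 FPKM in the 4 WT and 9.50 to 29.1 FPKM in the 4 Gpr180KO libraries. In title series 2 the 5 WT libraries had 1.11 to 52.2 FPKM and the 5 Gpr180KO 0.117 to 1.78 FPKM. Knockouts averaged 15.1% of WT in the first series and 2.85% in the second, and with the series as a block the difference passed (limma adjusted p = 0.00522).

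Cyp2b13 (chr7:26061495-26096196) had 0.0952 to 9.09 FPKM in WT (median 1.11) and 0.0179 to 1.78 FPKM in Gpr180KO (median 0.0957). The groups overlapped, with 4 of 9 knockouts below all WT mice. It reached the minimum of 1 FPKM only through WT, with a mean of 2.55 FPKM there and 0.352 FPKM in Gpr180KO, so its test is not independent of that minimum. Its log2 difference was -2.26 (SE 0.717, limma adjusted p = 0.0718, blocked 0.00718). Cyp2b10, in contrast, had a log2 difference of 0.16 (95% interval -0.49 to 0.82, limma adjusted p = 0.775), with 0.445 to 2.11 FPKM in WT and 0.468 to 1.76 FPKM in Gpr180KO.

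In the 250 bases before the start Cyp2b9 and Cyp2b13 were identical at 248, or 99.2%, and Cyp2b9 shared 72.7% with Cyp2b10. Their coding sequences were 92.7% identical. The last 150 of these bases are given for the pair, since its log2 differences were the largest with 0.1 added to FPKM. They come from RefSeq (GRCm38.p6, plus strand), at chr7:26173259-26173408 for Cyp2b9 and chr7:26061345-26061494 for Cyp2b13, and the capital marks the base that differs from Cyp2b9.
Cyp2b9: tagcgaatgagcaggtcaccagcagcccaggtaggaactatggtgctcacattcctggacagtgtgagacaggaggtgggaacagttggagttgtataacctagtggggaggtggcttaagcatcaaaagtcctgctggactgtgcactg
Cyp2b13: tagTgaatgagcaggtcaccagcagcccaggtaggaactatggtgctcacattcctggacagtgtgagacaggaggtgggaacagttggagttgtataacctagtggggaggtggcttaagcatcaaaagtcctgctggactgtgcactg
With 2 mismatches allowed, 37.8% of Cyp2b13 and 21.9% of Cyp2b9 windows matched another Cyp2b member. Of the Cyp2b13 windows 19.4% matched Cyp2b9 in this way, and 5.16% occurred in it exactly. Cyp2b13 stood at a median of 4.12% of the Cyp2b9 level in WT and 5.89% in Gpr180KO. Whether reads of Cyp2b9 counted for Cyp2b13 contributed to its difference was not tested.

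The Cyp2a genes follow the Cyp2b genes on chromosome 7, and all 4 had differences below 0, of which that of Cyp2a12 turned to 0.03 with median-of-ratios scaling. Cyp2a22 (chr7:26931631-26939386) had 20.8 to 37.2 FPKM in WT (median 23.5) and 13.9 to 22.8 FPKM in Gpr180KO (median 19.6), with 7 of 9 knockouts below the lowest WT library. It fell by 0.41 on the log2 scale (SE 0.111, 95% interval -0.64 to -0.17, limma adjusted p = 0.0398). After median-of-ratios scaling the log2 difference was -0.28 and not called (limma adjusted p = 0.183), and with single libraries left out the call held 8 times in 18.

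Cyp2a5, the coumarin hydroxylase, had 76.7 to 248 FPKM in WT (median 187) and 50.4 to 198 FPKM in Gpr180KO (median 131.2). The groups overlapped widely, and its log2 difference was -0.70 (limma adjusted p = 0.137, blocked 0.0308). Cyp2a4, a female-predominant steroid hydroxylase, had a log2 difference of -0.95 (limma adjusted p = 0.110, blocked 0.0374), with all 9 knockouts below the WT median of 32.0 FPKM. Cyp2a12, the most abundant of the subfamily, had a median of 314 FPKM in WT and 295 FPKM in Gpr180KO, a log2 difference of -0.10 (limma adjusted p = 0.481). With 2 mismatches 85.6% of Cyp2a4, 73.4% of Cyp2a5, 51.2% of Cyp2a22 and 54.9% of Cyp2a12 windows matched another Cyp2a gene.

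Cyp2c, the largest subfamily, moved both ways. Its members oxidise fatty acids, retinoids, bile acids and drugs, and several are arachidonic acid epoxygenases. The summed level was 1006 to 1842 FPKM in WT and 1186 to 1795 FPKM in Gpr180KO. Of its 13 members 1 fell, and 9 had differences above 0, of which Cyp2c50 turned to -0.02 with equal FPKM sums, while Cyp2c68 turned from -0.01 to 0.11 with median-of-ratios scaling.

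Cyp2c39 (chr19:39510822-39568529), which hydroxylates retinoic acid, had 2.12 to 6.01 FPKM in WT (median 4.53) and 0.586 to 3.13 FPKM in Gpr180KO (median 2.40). All knockouts were below the WT median and 4 of 9 below the lowest WT library. The log2 difference was -1.25 (SE 0.310, 95% interval -1.90 to -0.60, limma adjusted p = 0.0302). Its neighbour Cyp2c38 (chr19:39389556-39463075), an epoxygenase, had 30.6 to 53.0 FPKM in WT (median 41.0) and 7.51 to 44.0 FPKM in Gpr180KO (median 23.9). In 6 of 9 knockouts Cyp2c38 was below the lowest WT value, with a log2 difference of -0.82 (limma adjusted p = 0.0831, blocked 0.0170). Within 2 mismatches, 27.7% of Cyp2c39 and 17.0% of Cyp2c38 windows matched another Cyp2c gene. With single libraries left out the Cyp2c39 call held 11 times in 18.

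The member with the highest level relative to WT was Cyp2c44 (chr19:44005022-44029247), an epoxygenase none of whose windows matched another member within 2 mismatches. It had 61.4 to 142 FPKM in WT (median 78.2) and 90.8 to 250 FPKM in Gpr180KO (median 114). Every knockout was above the WT median, and the log2 difference of 0.68 was not called (limma adjusted p = 0.0746, blocked 0.0129). Cyp2c29, the most abundant Cyp2c and an epoxygenase, had 239 to 475 FPKM in WT and 352 to 588 FPKM in Gpr180KO, with a log2 difference of 0.37 (limma adjusted p = 0.0922). Cyp2c70, which makes the muricholic acids of mouse bile, had a log2 difference of 0.39 (limma adjusted p = 0.302), from -0.03 in title series 1 to 0.72 in title series 2.

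The other Cyp2c members were not called. Cyp2c55, a colon-enriched and CAR-inducible epoxygenase, had 1.28 to 3.30 FPKM in WT and 1.04 to 2.76 FPKM in Gpr180KO (log2 difference -0.59, limma adjusted p = 0.0876). Cyp2c54, with Cyp2c37 and Cyp2c50 a pericentral enzyme, had 18.2 to 151.5 FPKM in WT (median 33.3) and 41.8 to 95.2 FPKM in Gpr180KO (median 68.6). All 9 knockouts were above its WT median but none above the highest WT library, and the log2 difference was 0.58 (limma adjusted p = 0.296). Those of Cyp2c37 and Cyp2c50 were 0.20 and 0.02. Cyp2c67, Cyp2c69, Cyp2c40 and Cyp2c68 are near copies, with 81.9% to 95.6% of windows matching another member within 2 mismatches, so their single levels are uncertain. They had log2 differences of 0.23, 0.24, 0.13 and -0.01.

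**Figure D4:**
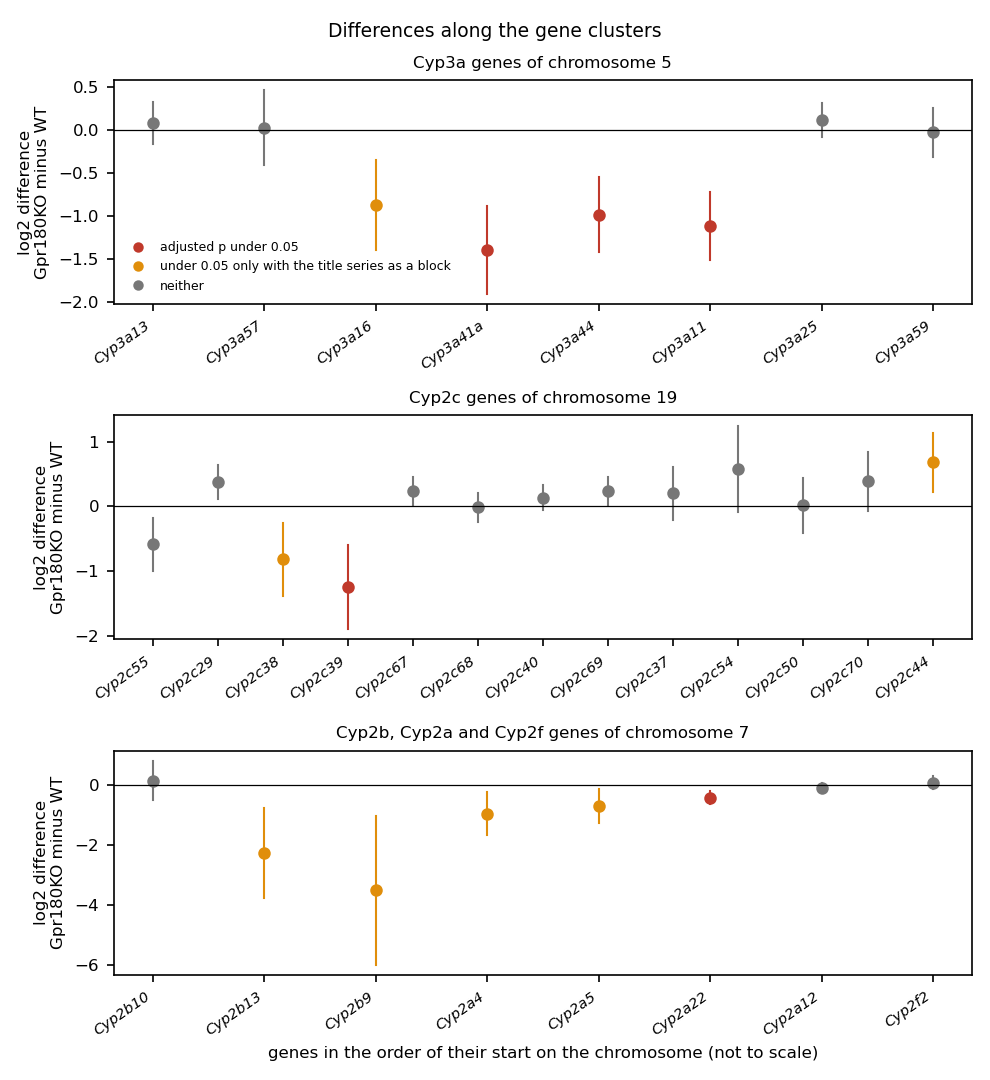
Log2 difference (Gpr180KO minus WT, y axis) with its 95% interval for members in their order along chromosomes 5, 19 and 7 (x axis, not to scale), coloured as called, called only with the title series as a block, or neither. The members called in either fit with values below 0 sit next to each other: Cyp3a16 to Cyp3a11, Cyp2c38 and Cyp2c39, and Cyp2b13 to Cyp2a22.

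Cyp1a2, which oxidises caffeine and aromatic amines and is found mainly in pericentral hepatocytes, was the called gene that rose. It (chr9:57676937-57683655) had 57.6 to 126 FPKM in WT (median 80.8) and 96.0 to 142 FPKM in Gpr180KO (median 106). All 9 knockouts were above the WT median, as for 6 of the 46 members and 1.43% of all genes, and the highest WT library lay among them. Mean levels were 83.63 ± 19.07 and 110.5 ± 14.04 FPKM (SD, n = 9 each), a log2 difference of 0.42 (SE 0.116, 95% interval 0.18 to 0.66, limma adjusted p = 0.0404). When each library was scaled to the same FPKM sum the adjusted p was 0.0753 in limma, and with single libraries left out the call held 4 times in 18. Cyp1a1, the other AhR target of the subfamily, was near the minimum at 0.835 to 1.86 FPKM in WT and 1.28 to 1.89 FPKM in Gpr180KO (log2 difference 0.23, limma adjusted p = 0.348).

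Cyp2d, Cyp2e, Cyp2f, Cyp2j, Cyp2r and Cyp2u, which include the most abundant member Cyp2e1, held no calls, with Cyp2u1 alone at an unadjusted p under 0.05 in limma. Cyp2e1, the ethanol-oxidising P450, had 2025 to 4980 FPKM in WT (median 3829) and 3308 to 4351 FPKM in Gpr180KO (median 3898). The knockouts lay within the WT range, and the log2 difference was 0.08 (95% interval -0.19 to 0.35, limma adjusted p = 0.731). Cyp2f2, a periportal enzyme that activates naphthalene, had a median of 510 FPKM in WT and 549 FPKM in Gpr180KO (log2 difference 0.09, 95% interval -0.12 to 0.31, limma adjusted p = 0.601). The 9 Cyp2d genes, relatives of the human drug-metabolising CYP2D enzyme, had differences from -0.27 (Cyp2d34) to 0.19 (Cyp2d12), and the groups overlapped in all of them. Replicates varied widely for Cyp2d9, with 241 to 734 FPKM in WT and 260 to 860 FPKM in Gpr180KO, and Cyp2d12, with 5.23 to 16.7 FPKM and 4.39 to 31.3 FPKM. Cyp2d26, the most abundant of them, had a median of 557 FPKM in WT and 569 FPKM in Gpr180KO (log2 difference 0.01, limma adjusted p = 0.938).

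Cyp2j5, an arachidonic acid epoxygenase, had a median of 235 FPKM in WT and 241 FPKM in Gpr180KO (log2 difference 0.07, limma adjusted p = 0.657), and those of Cyp2j6 and Cyp2j9 were -0.07 and -0.01. Cyp2r1, which carries out the hepatic hydroxylation of vitamin D, had 8.42 to 10.8 FPKM in WT and 4.93 to 9.81 FPKM in Gpr180KO (log2 difference -0.21, limma adjusted p = 0.273). Cyp2u1, a fatty acid hydroxylase, had 3.30 to 7.84 FPKM in WT and 5.04 to 8.10 FPKM in Gpr180KO (log2 difference 0.39, limma adjusted p = 0.114). All of these groups overlapped.

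**Figure D5:**
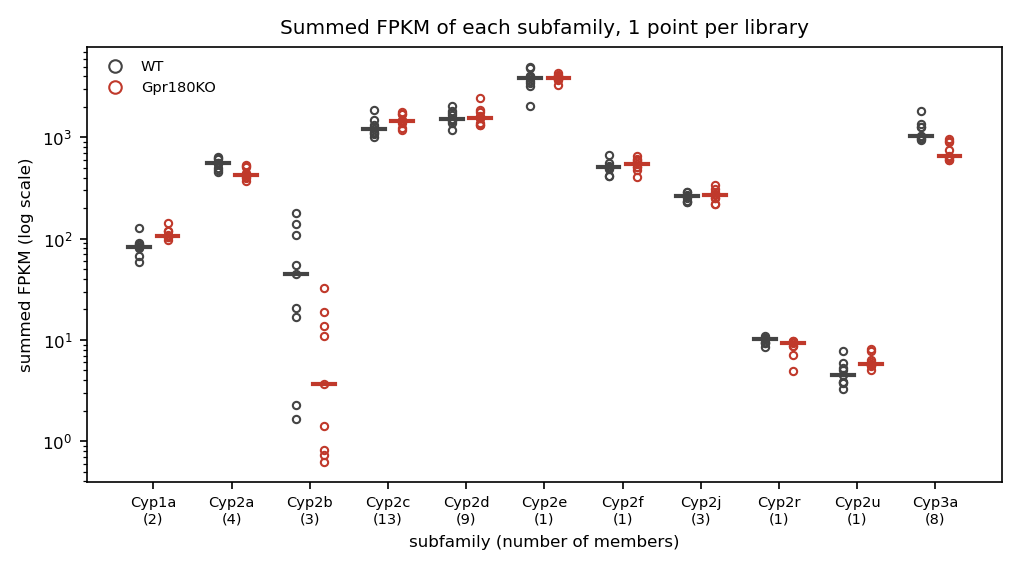
Summed FPKM (y axis, log scale) of each subfamily (x axis, number of members in brackets) in every WT and Gpr180KO library. Cyp2e is the highest at 2025 to 4980 FPKM in WT, the Cyp3a sums of Gpr180KO reach down to 603 FPKM against 948 FPKM in WT, and Cyp2b spreads from 0.623 to 179 FPKM.

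Members were next read by the signals known to control them. Of the 4 AhR-inducible genes tested Cyp1a2 rose, and Nqo1 (a quinone reductase) and Tiparp (a repressor of AhR) had log2 differences of -0.55 and -0.31 (limma adjusted p = 0.0922 and 0.235, blocked 0.0177 and 0.141). Of 5 CAR- or PXR-inducible members Cyp3a11 fell, and the list's median was 0.16. Of the 8 pericentral members Cyp3a11 fell and Cyp1a2 rose, with a median of 0.14. Over all genes tested 4.28% fell and 0.452% rose.

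Genes that are predominant in female liver had a median log2 difference of -0.95 over the 9 tested. All 9 are P450 members of families 2 and 3. Cyp3a41a and Cyp3a44 fell, Cyp2a4, Cyp2b9, Cyp2b13 and Cyp3a16 had values below 0, and Cyp2b10, Cyp2c40 and Cyp2c69 had 0.16, 0.13 and 0.24. With the title series as a block 6 fell, among them Cyp2b13, which reached the FPKM minimum only through WT. Over all genes tested 4.28% fell in the main fit and 9.52% with the block. The summed level of the female-predominant list was 84.4 to 316 FPKM in WT and 65.3 to 126 FPKM in Gpr180KO, with overlap. All mice were male, so these levels are those of the sex in which the genes are low.

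Genes that are predominant in male liver had a median of 0.81 over 7, and all 7 were above 0, whereas 76.95% of all genes lay below 0. Elovl3, a fatty acid elongase, rose (log2 difference 0.96, limma adjusted p = 0.0219), as did Cyp7b1, the oxysterol hydroxylase (0.81, limma adjusted p = 0.0464). Hsd3b5, a steroid dehydrogenase, had 0.283 to 65.2 FPKM in WT (median 2.51) and 2.33 to 156.3 FPKM in Gpr180KO (median 24.5), a log2 difference of 3.51 that did not pass (limma adjusted p = 0.0591, blocked 0.00811). With the title series as a block 4 of the 7 rose, with Slco1a1, an organic anion transporter, beside these 3 (log2 difference 1.46, limma adjusted p = 0.124, blocked 0.0402). Over all genes tested 0.452% rose in the main fit and 1.13% with the block. Hsd3b5 had the lowest mean level of the 7 and the largest difference. Cyp4a12a and Cyp4a12b, both more abundant than Hsd3b5, were not called (log2 differences 0.24 and 0.67, limma adjusted p = 0.696 and 0.411). The single member on this list, Cyp2d9, had a log2 difference of 0.05 (95% interval -0.47 to 0.57, limma adjusted p = 0.922).

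Of 20 partners and regulators of P450 enzymes 1 rose, against 0.452% of all genes, with a median log2 difference of -0.12, against -0.13 for all genes. The one called was Ephx2, the soluble epoxide hydrolase that converts the epoxides made by Cyp2c and Cyp2j enzymes, with 362 to 474 FPKM in WT (median 413) and 409 to 611 FPKM in Gpr180KO (median 520). Its log2 difference was 0.32 (limma adjusted p = 0.0359). Por, the electron donor, had a log2 difference of -0.11 (limma adjusted p = 0.734). The receptors Nr1i2 (PXR), Nr1i3 (CAR) and Ahr had 0.09, -0.13 and -0.50 (limma adjusted p = 0.460, 0.743 and 0.0991). Por and the receptors were picked after their values were seen.

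The promoter sequences of 39 of the 46 members were at hand (RefSeq, 250 bases before to 50 after the start), and letters were searched on both strands. The AhR core GCGTG stood in 5 of 39, among them Cyp1a1 but not Cyp1a2, against 32.4% of all promoters. A direct repeat of AGNTCA spaced by 4 bases, as nuclear receptors such as CAR and PXR can bind, was found in the Cyp3a11 promoter and in no other member, and in 0.125% of all promoters. The everted repeat (TGANCT and AGNTCA, spaced by 6 bases) and the STAT element TTCNNNGAA were in 0 of 39 members, against 0.0305% and 8.29% of all promoters.

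The 13 members below the minimum included 4 listed at 0 in every library (Cyp2b19, Cyp2j11, Cyp2j12 and Cyp2w1). Cyp1b1, an AhR target that in liver is mainly found outside hepatocytes, was the highest of them. It had 0.111 to 0.465 FPKM in WT (median 0.248) and 0.0519 to 0.188 FPKM in Gpr180KO (median 0.147). The groups overlapped, and the difference of means on the log2 scale was -0.68 (two-sided exact permutation test, unadjusted p = 0.00193, 1 of 9 such tests, smallest possible p = 4.11e-05). The stellate cell and fibroblast markers named above were lower in the same libraries, and their part in the Cyp1b1 level was not tested.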

How the data were processed

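Liver poly(A) RNA of 18 mice had been sequenced by the authors as single reads of 75 bases and aligned with TopHat to mm10 (GRCm38, per the labels). The deposited values are FPKM per gene made by the authors, without counts. FPKM was the output of the TopHat Alignment application (Illumina) per the study's methods, and the annotation is not given in the sources used here. FPKM was summed over entries with the same symbol, 24 genes with a failed estimate were left out, and 10835 genes with a mean of at least 1 FPKM were tested on log2(FPKM + 0.1) with limma 3.58.1 (R 4.3.3, eBayes with trend) and Benjamini-Hochberg adjustment (threshold 0.05). Fold changes on this scale understate those of low genes. Replicates are labelled as different mice, and groups came from the genotype label. The members and lists were chosen with earlier results of these data known. Named genes were the called members, the most abundant member of each subfamily, those at the minimum, and for each list its called genes and up to 4 of high level. Hsd3b5, the lowest of its list in mean level, was named outside this rule. Sequence windows came from GENCODE transcripts (45 of 46 members matched) and promoters from RefSeq. The fit was tested on simulated data. Alternatives were other scalings, pseudocounts, minima and variance models, the title series as a block or alone, sums over paralogs, and leaving out each library. Depth could only be given relative to the deepest library, so no counting intervals were set. Python 3.11.15 was used for sequences and plots.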

Additional observations from a re-analysis of the deposited data

Results flagged for a closer look

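Single libraries stood apart from their group in 5 of 94 sets of 9 values, each a gene in a genotype, by Dixon's ratio of the gap to the nearest value over the whole range. Chance flags about 1 in 20. Cyp2c55 was highest in KO56 at 2.76 FPKM (ratio 0.668), with 1.04 to 1.45 FPKM in the other Gpr180KO libraries. Cyp2d10 was highest in KO51 at 569 FPKM (ratio 0.497), against 287 to 406 FPKM. Cyp2e1 was lowest in the WT library W134 at 2025 FPKM (ratio 0.516), against 3222 to 4980 FPKM, and that library also had the lowest sum over all members. Cyp2j9 was lowest in W318 at 1.91 FPKM (ratio 0.543), against 3.09 to 4.61 FPKM. Cyp2r1 was lowest in KO319 at 4.93 FPKM (ratio 0.536), against 7.14 to 9.81 FPKM, and KO319 had the lowest relative depth of all libraries (44.4%). No member's genotype difference was called as different between the title series, although 10 members had an unadjusted p under 0.05 in that interaction (limma), as did 7.69% of all genes.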

How the results depend on the processing

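The number of members that fell (5) was 11 with the title series as a block, 8 with median-of-ratios scaling and that block together (chosen after seeing the data), 0 in title series 2 alone, and 3 to 7 when 1 library was left out, with 3 remaining without W317, W318, W320, W133, KO52, KO53 or KO54. The number that rose (1) was 0 with equal FPKM sums, 2 with the block, 5 with scaling and block, 3 in title series 1 alone, 0 in title series 2 alone and 0 to 3 with 1 library left out. Over all genes tested 464 fell and 49 rose in the main fit, and 1031 and 122 did so with the block. With scaling and block together fewer genes fell than in the main fit, and more rose. More genes also rose in title series 1 alone. Of the 18 fits with 1 library left out, the 7 with 3 members lower also called the fewest genes lower. The fit without W157 called the most genes lower. In title series 2 alone limma called 0 genes of any kind. At an unadjusted limma p under 0.05, 1783 genes were lower there and 236 higher, among them 11 and 6 members. Cyp3a11, Cyp3a41a and Cyp3a44 were called in all 18 fits with 1 library left out, Cyp2c39 in 11 (all but those 7, adjusted p up to 0.0711), Cyp2a22 in 8 (those without W319, W131, W134, W157, KO319, KO321, KO51 or KO56, adjusted p up to 0.0828) and Cyp1a2 in 4 (those without W157, KO319, KO322 or KO51, adjusted p up to 0.0830). Elovl3 was called in 17 (not without W317, adjusted p = 0.0501), Ephx2 in 9 and Cyp7b1 in 6, with adjusted p up to 0.0801 and 0.103. The median difference of the members (0.04) was 0.16 after median-of-ratios scaling, with or without the block, 0.13 after 75th percentile scaling and -0.02 to 0.07 with 1 library left out. Of the partners and regulators 2 were called with the block, 2 in title series 1, 0 in title series 2 and 0 to 2 with 1 library left out. Gpr180 had -1.94 in title series 2 alone (limma adjusted p = 0.0654) and -2.07 to -1.90 with 1 library left out.

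None of the 6 called members changed sign under any alternative. Some uncalled genes did, among them Cyp2c70 and Cyp2d34, whose differences in the main fit were 0.39 and -0.27. After median-of-ratios scaling, with or without the block, Cyp2a12 had 0.0271, Cyp2c68 0.11, Cyp2j6 0.0575, Cyp2j9 0.11, Cyp3a59 0.0978, Pgrmc1 0.015 and Por 0.0169. After 75th percentile scaling Cyp2c68 had 0.0791, Cyp2j6 0.027, Cyp2j9 0.0837 and Cyp3a59 0.0673. With equal FPKM sums Cyp2c50 had -0.022, Cyp2d22 -0.033, Cyp2d26 -0.0232 and Cyp3a57 -0.00241. In title series 1 alone Cyp2b10 had -0.0628, Cyp2c40 -0.0185, Cyp2c70 -0.028, Cyp2d22 -0.0295, Cyp2d34 0.11, Cyp2j9 0.38, Cyp3a59 0.19, Por 0.10 and Nr1i3 0.0327. In title series 2 alone Cyp2c50 had -0.14, Cyp2c68 0.17, Cyp2d9 -0.11, Cyp2j6 0.0209, Cyp3a57 -0.25 and Nr1i2 -0.0418. With 1 library left out the ranges were -0.11 to 0.14 for Cyp2c50, -0.0562 to 0.0354 for Cyp2c68, -0.00167 to 0.0853 for Cyp2d11, -0.0498 to 0.0525 for Cyp2d22, -0.0278 to 0.0572 for Cyp2d26, -0.0398 to 0.21 for Cyp2d40, -0.0842 to 0.15 for Cyp2d9, -0.0281 to 0.13 for Cyp2e1, -0.11 to 0.0737 for Cyp2j9, -0.0479 to 0.15 for Cyp3a57 and -0.0773 to 0.0694 for Cyp3a59. The causes were not tested. No pair of kept members shared 50% of windows with each other, so the planned sum over such paralogs was not run. Summing those that shared at least 10%, an alternative chosen after seeing the data, left 39 features, of which 4 fell and 1 rose, with a median difference of 0.05. Cyp3a11, Cyp3a41a, Cyp3a44 and Cyp3a16 shared at most 5.14% of windows with each other and were not summed. Sharing of reads among these genes was therefore not tested by this alternative. Without counts, values under 1 FPKM have unknown precision.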
